A study of Homo sapiens with 4 samples.

Results

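Genes whose symbol begins with ZNF followed by a digit form the largest named group of zinc-finger genes in the human genome, and 43 of the 2260 distinct genes listed in the authors' deposited tables belonged to it. A row was taken when its symbol fitted that pattern, or, where no symbol was given, when GENCODE release 29 gives its Ensembl identifier such a name. The HepG2 table held 21 of these genes among 1409 and the K562 table held 23 among 942, with 1 gene (2.33%), ZNF260, in both. Of all 2260 listed genes 91 (4.03%) were in both tables. The groups were HepG2 cells, a liver cancer line, with a stable plasmid-borne siRNA against ADAR1 (ADAR knockdown), HepG2 cells carrying a scrambled siRNA (control), K562 cells, an erythroleukemia line, with the ADAR knockdown, and K562 cells with the scrambled control. Each group was 1 RNA-seq sample, sequenced in 2 technical replicates. The tables give 1 average per gene and group and no value per replicate, so values have no SD, and differences were described and not tested. What was averaged is not named: the averages of the ZNF genes became whole numbers when multiplied by 1 to 24 in HepG2 and by 1 to 6 in K562, so it was not in each case the replicates alone. The question of the study was how the loss of ADAR changes splicing, and the tables hold values per gene. A stable pool or clone was not distinguished in the labels, and the siRNA was the most effective of several tried. Both tables were limited by the authors to genes at or past 2-fold, so a gene that is not listed cannot be read as unaffected, and the depth of the libraries is unknown.

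Most ZNF proteins bind DNA through an array of C2H2 fingers, short loops in which cysteines and histidines hold a zinc ion. Many of them begin with a KRAB box, which recruits the co-repressor TRIM28 and through it silencing factors, and many of their targets are transposable elements. A large share of the family lies in clusters on chromosome 19 that arose by repeated duplication. ADAR deaminates adenosines in paired RNA, and most of its human sites lie in Alu repeats, short mobile elements that pair when inverted copies occur in the same transcript. Transcripts of ZNF genes are known to carry many Alu copies in their untranslated regions.

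An Alu-derived string was counted in the longest transcripts of GENCODE 29. It was the string of 18 bases held by the most genes among the longest coding transcripts of 19659 protein-coding genes, in 1237 genes (6.29%), and its reverse complement was in 1183 (6.02%). An exact match of this length misses diverged copies, so it marks some Alu-containing transcripts and not all. Of the 39 ZNF genes that GENCODE 29 calls protein-coding, 13 (33.3%) held the string in either orientation, always after the coding sequence, and 2 held it in both.

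A different string recurred in the coding sequences. In the 512 annotated ZNF genes with a coding sequence, the most widely shared string of 18 bases was TCATACTGGAGAGAAACC, in 141 genes (27.5%). It codes for the linker that joins neighbouring fingers. Of the listed ZNF genes, 5 held it exactly, in 29 copies, and 16 of the 24 gaps between neighbouring copies were 84 bases long, the length of 1 finger and its linker. The string is shorter than the reads of 76 bases, and sharing with other genes at that length is given further below. A copy from each of these 5 genes is shown with the string in capitals:
ZNF430, coding bases 756 to 785: aagaatTCATACTGGAGAGAAACCctacaa
ZNF260, coding bases 54 to 83: tcaaatTCATACTGGAGAGAAACCttatga
ZNF443, coding bases 1404 to 1433: aacaacTCATACTGGAGAGAAACCctataa
ZNF320, coding bases 456 to 485: gagaatTCATACTGGAGAGAAACCttacaa
ZNF845, coding bases 1038 to 1067: tagactTCATACTGGAGAGAAACCttacaa
ZNF845 held 15 copies and ZNF430 held 8, whereas ZNF260 and ZNF443 held 1 each. All 5 genes lie on chromosome 19.

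ADAR itself was lower in the knockdown of both lines, with an average of 129 in HepG2 knockdown cells and 461 in HepG2 control cells, and 131 in K562 knockdown cells and 275 in K562 control cells. Of the marker genes of cell types, the HepG2 table listed 1 of 11 hepatocyte genes (higher), 2 of 11 erythroid genes (both higher), 3 of 6 fibroblast genes (2 higher and 1 lower) and 0 of 5 myeloid or lymphoid genes. That table listed 4.51% of all annotated protein-coding genes, and 55.0% of all its listed genes were higher. The hepatocyte gene FOXA1 averaged 210 in HepG2 knockdown cells and 90.8 in HepG2 control cells. The erythroid genes HBA2 and HBZ averaged 125 and 34.9 in knockdown cells and 47 and 16.6 in control cells. The fibroblast genes DCN and LUM, which code for matrix proteoglycans, averaged 774 and 1445 in HepG2 knockdown cells and 261 and 528 in HepG2 control cells, whereas COL3A1 averaged 34.5 in knockdown cells and 323 in control cells. The K562 table listed none of these markers, and it listed 2.06% of all annotated protein-coding genes. The labelled identity of the cells could not be checked from listed genes, and the part of these markers in the values of the ZNF genes was not tested. In such bulk samples fewer cells expressing a gene and less of its RNA per cell cannot be told apart.

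In HepG2, most of the listed ZNF genes were higher in the knockdown. Of the 21, 16 (76.2%) were higher, against 55.0% of all 1409 listed genes and 55.5% of the 899 listed protein-coding genes. The other 5 were lower, against 45.0% of all listed genes and 44.5% of the protein-coding ones. The median log2 fold, computed from the averages after adding 1 to each, was 1.13 over the ZNF genes and 1.05 over all listed genes. In K562, 13 of the 23 listed ZNF genes (56.5%) were higher, against 38.2% of all 942 listed genes, and 10 were lower, against 61.8%. Over the 18 K562 members whose symbol and annotation are both those of a protein-coding gene 9 were higher, against 29.3% of the 410 listed protein-coding genes, and 9 were lower, against 70.7%. The median log2 fold in K562 was 1.02 over the ZNF genes and -1.09 over all listed genes. With 13 genes on one side and 10 on the other this median was not stable: it was 0.0011 over the protein-coding ZNF genes, -1.86 at 3-fold, -2.06 at 4-fold and -1.01 over genes at or above the median average.

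**Figure D1:**
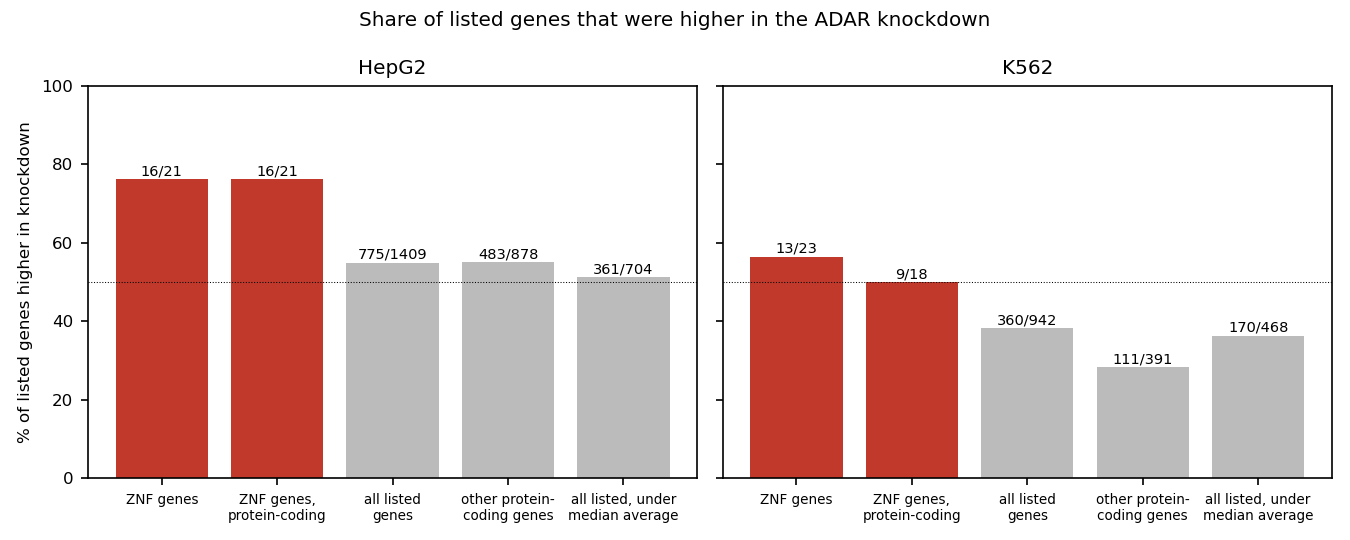
Share of listed genes that were higher in the ADAR knockdown (percent, vertical axis) in HepG2 (left) and K562 (right), with the count above each bar and a dotted line at 50%. ZNF genes (red) stood at 76.2% in HepG2 and 56.5% in K562, against 55.0% and 38.2% of all listed genes (grey).

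The scaling between knockdown and control could not be checked from the tables, and any other scaling moves the share higher of all genes by construction. With the knockdown averages divided by 1.5, 4 of the 9 HepG2 ZNF genes still past 2-fold were higher, against 28.2% of all listed genes still past it, and in K562 1 of 11 was, against 12.3%. With them multiplied by 1.5, 16 of the 17 HepG2 ZNF genes still past 2-fold were higher, against 76.3%. In K562 13 of 17 were, against 71.3%. Multiplying keeps every listed higher gene and can drop only lower ones, and dividing does the reverse. Genes that another scaling would bring past 2-fold are not listed, so these shares do not show what that scaling would give.

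The listed ZNF genes had lower averages than all listed genes. The median of the larger of the paired averages was 26.7 over the ZNF genes and 49.8 over all listed genes in HepG2, and it was 21 over the ZNF genes and 32 over all listed genes in K562. The smallest larger average of any listed gene was 14 in HepG2 and 13.8 in K562, so several ZNF genes sat close to the bottom of what was listed. ZNF34, at 14.9, exceeded 0.781% of the HepG2 genes in this value, and ZNF497, at 13.8, exceeded 0.106% of the K562 genes. Past 4-fold in either direction stood 2 of the 21 ZNF genes in HepG2, against 17.1% of all listed genes, and 3 of the 23 in K562, against 9.34%. Past 3-fold stood 5 of the 21 in HepG2, against 33.4% of all listed genes, and 4 of the 23 in K562, against 22.3%. Within the genes whose larger average was under the table's median, 13 of 16 ZNF genes were higher in HepG2, against 51.3% of 704 listed genes, and 11 of 18 were higher in K562, against 36.3% of 468. At or above the median the ZNF genes stood near all listed genes, with 3 of 5 higher in HepG2, against 58.7% of 705, and 2 of 5 higher in K562, against 40.1% of 474.

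**Figure D2:**
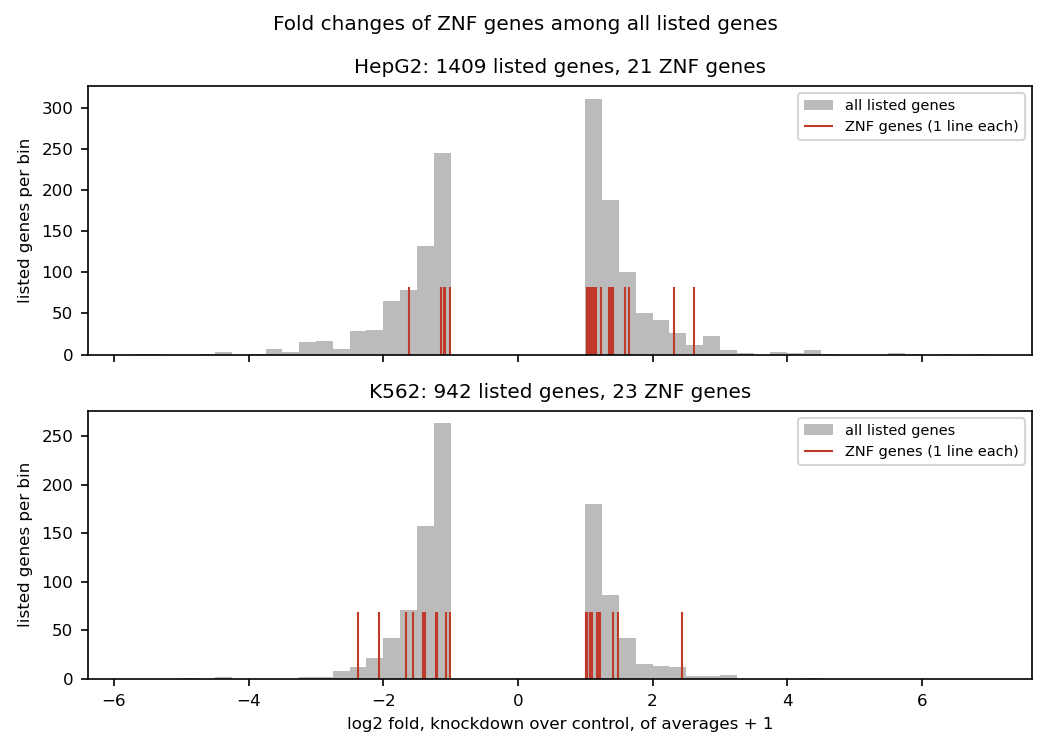
Histograms of the log2 fold (knockdown over control, of averages after adding 1, horizontal axis) of all listed genes for HepG2 (top) and K562 (bottom), with a red line for each ZNF gene. The gap around 0 is the authors' 2-fold limit. The highest ZNF gene was at 2.61 in HepG2 and the lowest was at -2.37 in K562.

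A strict search for the KRAB A box in the translated coding sequence found it in 270 of the 512 annotated ZNF genes (52.7%) and in 1.52% of all protein-coding genes. It was found in 7 of the HepG2 members, of which 5 were higher in the knockdown. Of all listed HepG2 genes 55.0% were higher, and of the listed protein-coding ones 55.5%. In K562 it was found in 8 members, of which 6 were higher, against 38.2% of all listed genes and 29.3% of the protein-coding ones. Diverged boxes are missed, so a gene without a match is not shown to lack one.

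ZNF558 (ENSG00000167785, chromosome 19), a KRAB protein with 9 finger patterns, averaged 23.8 in HepG2 knockdown cells and 4 in HepG2 control cells, which was 4.97-fold higher. ZNF419 averaged 24.2 in knockdown cells and 7.38 in control cells, 3.005-fold higher. ZNF430, with 11 fingers, averaged 23.5 in knockdown cells and 8.25 in control cells, 2.65-fold higher. These 3 chromosome 19 genes had nearly the same knockdown average and differed in their control averages. ZNF211 averaged 49 in knockdown cells and 22 in control cells, 2.17-fold higher. ZNF674, an X-linked gene, averaged 15.8 in knockdown cells and 6.5 in control cells, 2.24-fold higher. The lower KRAB-pattern members in HepG2 were ZNF101, at 18.2 in knockdown cells and 39.5 in control cells (2.11-fold lower), and ZNF891, at 26.5 in knockdown cells and 59.5 in control cells (2.20-fold lower). ZNF558, ZNF419, ZNF430, ZNF674, ZNF101 and ZNF891 each held the Alu-derived string, and ZNF211 did not.

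In K562 the higher KRAB-pattern genes were ZNF248, ZNF443, ZNF763, ZNF382, ZNF845 and ZNF707. ZNF248 averaged 44.8 in knockdown cells and 16.2 in control cells, 2.65-fold higher. ZNF443, with 16 finger patterns, averaged 18.2 in knockdown cells and 7.25 in control cells, 2.33-fold higher. ZNF763 averaged 21 in knockdown cells and 8.5 in control cells, 2.32-fold higher. These 3 genes stood at similar folds, and ZNF248 had the highest average of them in both samples. ZNF382, a repressor described as a tumour suppressor, averaged 16 in knockdown cells and 6.5 in control cells, 2.27-fold higher. ZNF845, the longest array of the higher genes with 26 fingers, averaged 18 in knockdown cells and 8 in control cells, 2.11-fold higher. ZNF707 averaged 29.5 in knockdown cells and 14 in control cells, 2.03-fold higher. The 2 lower members were ZNF320 and ZNF350. ZNF320 averaged 4.5 in knockdown cells and 27.5 in control cells and was 5.18-fold lower, with 18 of the 582 lower K562 genes showing a larger fold. Nearly all of its longest transcript, 99.5% by strings of read length, is also found in other annotated genes. Among these are ZNF468 and AC010487.3, which overlap ZNF320. What this did to the averages of ZNF320 is unknown, because the annotation used in counting is not named. The shares of ZNF763 and ZNF443 are given further below. ZNF350, also called ZBRK1, a partner of BRCA1 in repression, averaged 5.5 in knockdown cells and 16 in control cells, 2.62-fold lower.

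Members with C2H2 fingers and no KRAB match had 10 higher and 3 lower genes in HepG2. There 55.0% of all listed genes and 55.5% of the listed protein-coding ones were higher. In K562 this group had 3 higher and 6 lower genes. There 38.2% of all listed genes and 29.3% of the listed protein-coding ones were higher. ZNF804A, a neuronal gene studied in psychiatric genetics, had the highest knockdown average of any listed ZNF gene in HepG2, at 110 in knockdown cells and 34.2 in control cells (3.15-fold higher). ZNF385A, a cofactor of p53 that steers it toward cell cycle arrest, averaged 75.1 in knockdown cells and 31.2 in control cells, 2.36-fold higher. ZNF711, an X-linked factor that works with the histone demethylase PHF8, averaged 26.5 in knockdown cells and 9.5 in control cells, 2.62-fold higher. These 3 genes were higher by similar factors at quite different averages. ZNF32 averaged 25.3 in knockdown cells and 9.33 in control cells, 2.55-fold higher. ZNF644, a partner of the histone methyltransferases G9a and GLP, averaged 26.7 in knockdown cells and 12.3 in control cells, 2.08-fold higher. ZNF202, a repressor of lipid transport genes, averaged 22.6 in knockdown cells and 10.6 in control cells, 2.03-fold higher, the smallest fold of the higher members. The remaining higher members apart from ZNF260 stood just past 2-fold. ZNF26 averaged 21.1 in knockdown cells and 9.12 in control cells, 2.19-fold higher. ZNF524, which binds telomeric DNA, averaged 58.2 in knockdown cells and 26.8 in control cells, 2.13-fold higher. ZNF414 averaged 48.1 in knockdown cells and 22.6 in control cells, 2.08-fold higher. The lower members in this group were ZNF296, at 10.8 in knockdown cells and 35 in control cells (3.06-fold lower), ZNF34, at 6.4 in knockdown cells and 14.9 in control cells (2.15-fold lower), and ZNF526, at 34.2 in knockdown cells and 69.8 in control cells. ZNF296 is known in mouse as a factor of heterochromatin and reprogramming, and ZNF526, at 2.01-fold lower, was the HepG2 member nearest to the 2-fold limit.

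In K562 the group without a KRAB match was led in the lower direction by ZNF462, a very large protein with 33 finger patterns that is needed for normal development. ZNF462 averaged 4.5 in knockdown cells and 22 in control cells, 4.18-fold lower. ZNF295, which GENCODE 29 names ZBTB21, a BTB-domain finger protein, averaged 5.75 in knockdown cells and 17 in control cells, 2.67-fold lower. Both had knockdown averages among the lowest of the K562 members. ZNF787 had the highest average of the listed K562 members, at 67 in knockdown cells and 136 in control cells, and at 2.02-fold was close to the limit. ZNF581 averaged 31.2 in knockdown cells and 66.5 in control cells, 2.09-fold lower. The higher members were ZNF322A, at 18 in knockdown cells and 2.5 in control cells (5.43-fold higher), ZNF284, at 15 in knockdown cells and 6.5 in control cells (2.13-fold higher), and ZNF497, at 13.8 in knockdown cells and 6.33 in control cells (2.02-fold higher). ZNF322A is named ZNF322 in GENCODE 29, and its mouse counterpart acts in embryonic stem cells.

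In 3 members the search found no C2H2 pattern. The search was strict and misses diverged fingers, so these genes are not shown to lack one. ZNF185, an X-linked gene that the authors' table annotates with a LIM domain and whose protein associates with the actin cytoskeleton, averaged 29.5 in HepG2 knockdown cells and 4 in HepG2 control cells. Its 6.10-fold was the largest of any listed ZNF gene, and 53 of the 775 higher HepG2 genes had a larger one. ZNF503 and ZNF703, paralogs of the NET family of co-repressors, were both lower in K562. ZNF503 averaged 5 in knockdown cells and 18 in control cells, 3.17-fold lower. ZNF703, an oncogene amplified in breast cancer, averaged 7.5 in knockdown cells and 18.5 in control cells, 2.29-fold lower.

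**Figure D3:**
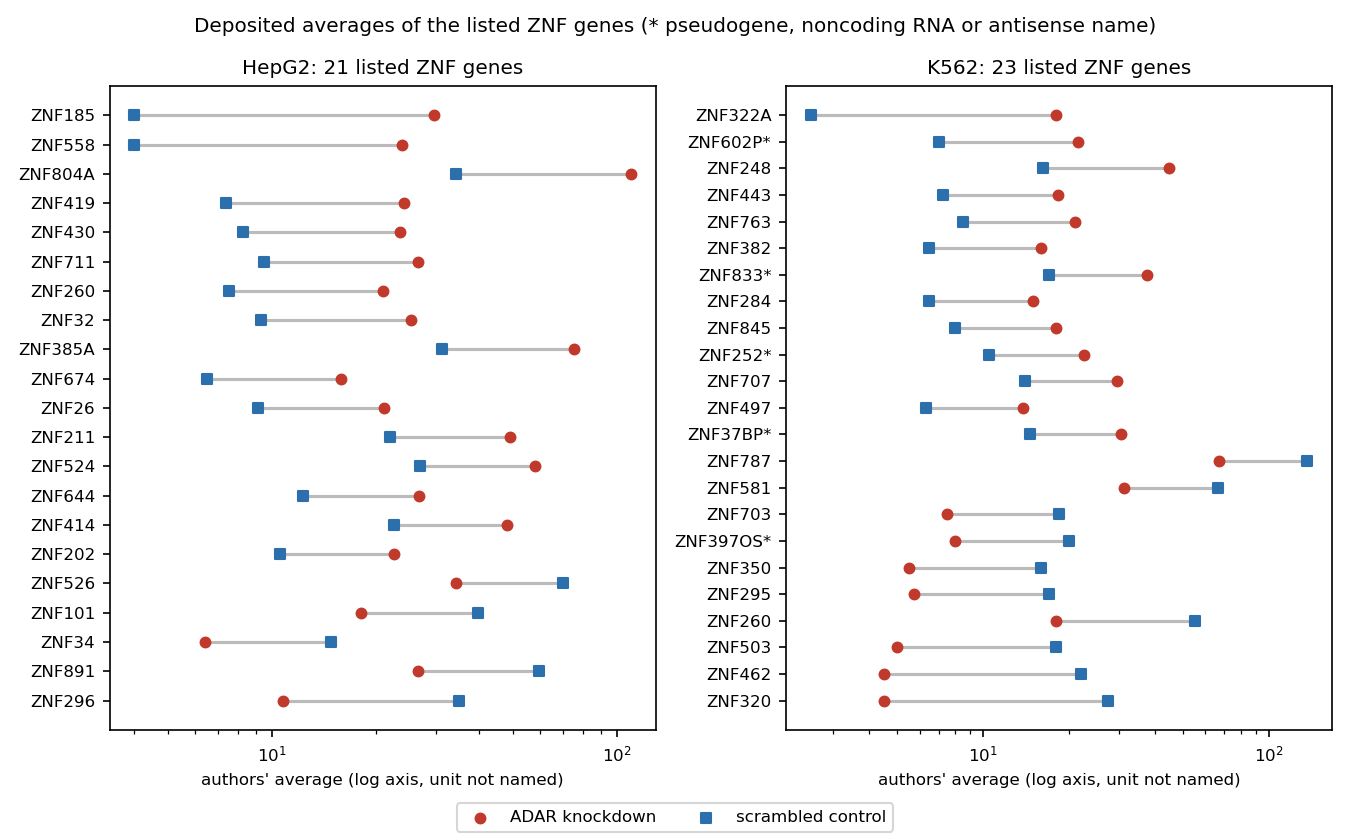
The authors' averages in the ADAR knockdown (red circles) and the scrambled control (blue squares) of each listed ZNF gene, on a log axis, for HepG2 (left, 21 genes) and K562 (right, 23 genes), ordered by fold. An asterisk marks the 5 K562 members that are a pseudogene, a noncoding RNA or an antisense name. ZNF260 is the gene present in both panels, with the knockdown to the right of the control in HepG2 and to its left in K562.

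Members that are not plain protein-coding ZNF genes numbered 5 in the K562 table and 0 in the HepG2 table, and 4 of the 5 were higher. The lower one, ZNF397OS, is counted here by its name. By annotation type alone, 4 K562 members are not protein-coding, and all 4 were higher. Of all listed genes 428 of 942 (45.4%) in K562 and 375 of 1409 (26.6%) in HepG2 are of a type other than protein-coding in GENCODE 29, and 48.1% of those 428 were higher in K562. The pseudogene ZNF602P averaged 21.5 in knockdown cells and 7 in control cells, 2.81-fold higher. ZNF252, a pseudogene named ZNF252P in GENCODE 29, averaged 22.5 in knockdown cells and 10.5 in control cells, 2.04-fold higher. The pseudogene ZNF37BP averaged 30.5 in knockdown cells and 14.7 in control cells, and at 2.01-fold higher it was the K562 member nearest to the limit. The row named ZNF833 carries an identifier that GENCODE 29 gives to a noncoding RNA, AC008543.1, and it averaged 37.5 in knockdown cells and 17 in control cells, 2.14-fold higher. The row named ZNF397OS, a name for the strand opposite to ZNF397, carries the identifier of the protein-coding gene ZSCAN30, which overlaps ZNF397 on the other strand. It averaged 8 in knockdown cells and 20 in control cells, 2.33-fold lower. In the absence of a statement that strand was used in counting, reads from a stretch shared with ZNF397 cannot be told apart. By strings of read length, 2.64% of its longest transcript is also found in ZNF397.

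ZNF260 (ENSG00000254004, chromosome 19), whose rodent counterpart takes part in the cardiac response to adrenergic signals, went in opposite directions in the 2 lines. It averaged 21 in HepG2 knockdown cells and 7.5 in HepG2 control cells, 2.59-fold higher. It averaged 18 in K562 knockdown cells and 55 in K562 control cells, 2.95-fold lower. The tables may have been scaled separately, so levels are not compared between lines. An antisense gene overlaps it in GENCODE 29, and 1.66% of its read-length strings were also in another gene.

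About the same share of listed ZNF genes as of the annotated family lay on chromosome 19. There were 10 of 21 in HepG2 (47.6%) and 12 of 23 in K562 (52.2%), against 249 of the 514 protein-coding genes that GENCODE 29 names ZNF (48.4%). Of the other listed protein-coding genes, 5.01% in HepG2 and 4.60% in K562 were on chromosome 19. In HepG2, 7 of the 10 members on chromosome 19 and 9 of the 11 elsewhere were higher, and 30 of 44 other protein-coding genes of chromosome 19 were higher as well. In K562, 7 of 12 members on chromosome 19 and 6 of 11 elsewhere were higher, whereas 4 of 18 other protein-coding genes of that chromosome were. Few members were neighbours. With at most 5 protein-coding genes between them there were 5 pairs, and their directions were mixed. ZNF414 and ZNF558 on chromosome 19 were both higher in HepG2, and ZNF248 and ZNF37BP on chromosome 10 were both higher in K562. ZNF26 and ZNF891 on chromosome 12, with 2 genes between them, went opposite ways in HepG2. ZNF382 and ZNF260, with 1 gene between them, went opposite ways in K562. ZNF524 and ZNF581 were listed in different lines.

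The listed share of the family was near that of other coding genes in HepG2. Of the 514 annotated protein-coding ZNF genes, 21 (4.09%) were listed in HepG2, against 4.51% of all 19951 annotated protein-coding genes. In K562, 17 (3.31%) were listed, against 2.06%. Annotated genes include genes that these cells may not express and that could not have been listed, so the shares are a description of the tables.

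The Alu-derived string was more frequent in transcripts of listed ZNF genes than in those of other listed coding genes, and the ZNF transcripts were also longer. In HepG2, 9 of 21 ZNF genes (42.9%) held it, against 11.4% of 878 other listed protein-coding genes, with median transcript lengths of 4073 and 3448 bases. In K562, 4 of the 19 that are protein-coding in the annotation (21.1%) held it, against 10.2% of 391, with median lengths of 4323 and 2934 bases. Those 4 were ZNF382, ZNF284, ZNF845 and ZNF320, and the pseudogene ZNF252 held it too. Per kilobase of transcript there were 0.135 copies in the HepG2 ZNF genes and 0.0409 in the other listed coding genes of that table, and 0.103 and 0.0367 in K562. Of the 14 copies in the HepG2 ZNF genes, ZNF26 held 3 in each orientation, in a transcript of 17601 bases. Of all 512 annotated ZNF genes with a coding transcript 25.2% held the string, with a median length of 3668 bases and 0.0889 copies per kilobase. By direction, 6 of 16 higher and 3 of 5 lower ZNF genes held the string in HepG2, and 3 of 9 higher and 1 of 10 lower coding members held it in K562. In HepG2 the genes with the string were higher in 6 of 9 cases and those without it in 10 of 12. In K562, pseudogenes and the noncoding RNA included, those with the string were higher in 4 of 5 cases and those without it in 9 of 18. Among the other listed protein-coding genes, 11.8% of the higher and 10.9% of the lower ones held it in HepG2, and 15.3% of the higher and 8.21% of the lower ones in K562. Editing was not measured in these tables.

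Some members of both tables share sequence with other genes. The reads had 76 bases. Of all strings of that length in the longest transcript of a member, a median of 0.220% also occurred in transcripts of another annotated gene on either strand, and 17 of the 43 members had none. For 10 members (23.3%) the share was above 10%. Of the 39 members that are protein-coding in the annotation, 9 (23.1%) were above it, against 17.2% of the 1232 other listed protein-coding genes. Of the 10 members, only ZNF32 was listed in HepG2, and 9 were listed in K562. The share of other listed genes was not taken for each line, so this split has no background beside it. The share was 99.5% in ZNF320, 59.7% in ZNF833, 51.0% in ZNF763 and 42.9% in ZNF284. It was 29.5% in ZNF497, 27.9% in ZNF443, 20.2% in ZNF32, 14.3% in ZNF581 and 11.6% in ZNF503. Each of these members overlaps a gene that holds some of its strings, such as ZNF468 and AC010487.3 for ZNF320 and ZNF580 for ZNF581. Where genes overlap, the same stretch of the genome can be annotated under more than 1 gene. In ZNF322A, the K562 member with the largest fold, the share was 24.2%, with strings found in the pseudogene ZNF322P1 among others. No annotated gene overlaps ZNF322A. Without these 10 members, an alternative chosen after seeing the data, 15 of 20 were higher in HepG2 and 7 of 14 were higher in K562, and the K562 median log2 fold was -0.0032.

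**Figure D4:**
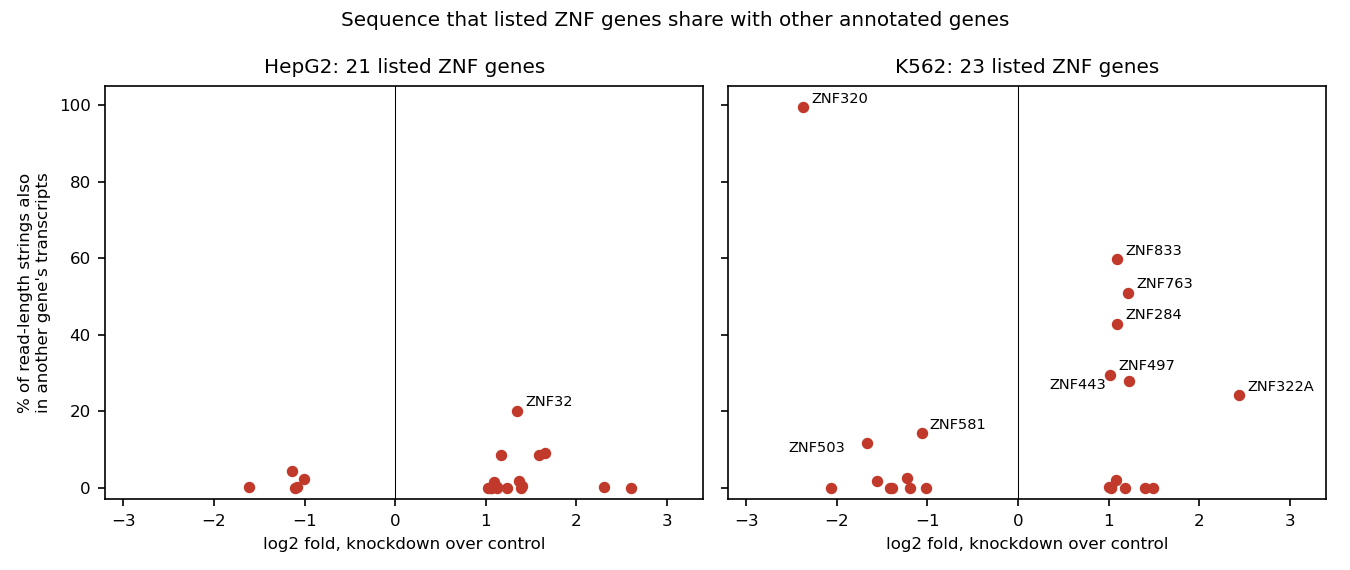
Percent of the strings of 76 bases in each listed ZNF gene's longest transcript that also occur in another annotated gene (vertical axis) against its log2 fold, knockdown over control (horizontal axis), for HepG2 (left) and K562 (right). Members above 10% are named. HepG2 has 1 such gene, ZNF32 at 20.2%, and K562 has 9, up to ZNF320 at 99.5%.

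In the reference annotation 30 of the 43 members overlap another gene, 24 of them one on the opposite strand and 11 of them a protein-coding gene. Overlap was taken over whole gene spans, introns included, and was not counted for genes other than the members. No overlapping gene was itself listed in either table. For members such as ZNF382 with ZNF529, ZNF524 with FIZ1 and ZNF891 with ZNF140, the genes lie on opposite strands. Reads from a stretch that is in both genes cannot be assigned without strand. The share of read-length strings of the longest transcript that were also in another gene was 0% in ZNF382, 1.43% in ZNF524 and 4.30% in ZNF891.

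Of 21 co-repressors and heterochromatin factors that work with KRAB proteins, among them TRIM28, SETDB1 and the HP1 genes, ATRX was listed in HepG2 (4.76%, against 4.51% of all annotated protein-coding genes) and 0 in K562 (against 2.06%). These counts were near the share of all coding genes. ATRX, a chromatin remodeller that works with DAXX, averaged 32.2 in HepG2 knockdown cells and 5.83 in HepG2 control cells, 4.85-fold higher. Zinc-finger genes with other family names numbered 14 among the 1409 listed HepG2 genes and 2 among the 942 listed K562 genes. How many such genes are annotated was not counted. In HepG2 12 of the 14 were higher, against 55.0% of all listed genes. Of these, 7 were KLF names, all higher, and 1 of the 7, KLF3P1, is a pseudogene. EGR1, an immediate early gene, averaged 1407 in knockdown cells and 198 in control cells and had the largest fold of these, 7.08-fold higher. GLI3, a transcription factor of Hedgehog signalling, averaged 186 in knockdown cells and 37 in control cells, 4.91-fold higher. KLF4 averaged 49.8 in knockdown cells and 11.6 in control cells, 4.03-fold higher. ZSCAN31, at 2.82-fold, and SNAI1, at 2.25-fold, were the lower ones. In K562 ZBTB44 was 2.37-fold higher and ZBTB20 was 5.57-fold lower, at 2.5 in knockdown cells and 18.5 in control cells.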

How the data were processed

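RNA of HepG2 and K562 cells was sequenced as paired ends of 76 bases with 2 technical replicates per sample, per the labels' protocols. TopHat, SAMtools and hg19 are named in the submitters' processing notes; no source used here names the counter, the annotation, the use of strand or the scaling. Per the file headers, each deposited row holds an average for knockdown and control, treated as a signal of unnamed unit. The deposited log2 fold equals that of the averages after adding a pseudocount of 1, and the signed fold that the authors deposited, a score here, gives that ratio too. Depth is unknown, so low averages have no interval. Groups came from the labels. There was no test, because each group is 1 sample.

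Folds were recomputed from the averages. A symbol given more than once kept its row with the highest mean, so 1413 rows became 1409 genes for HepG2, and 945 became 942 for K562. All 43 members' identifiers were found in GENCODE 29 on GRCh38, which gave names, types, chromosomes, overlaps and transcripts; coordinates are left out, the builds being different. Of the 36 rows with a symbol, 5 are named differently there. Members, lists and sequence searches were chosen with earlier results of these data known. Named genes were ADAR, members in both tables, the 10 highest and 10 lowest folds per table, every noncoding member and members nearest to 2-fold and the listed genes of the fixed lists; ZNF26, ZNF707 and ZNF497 fall outside this rule and were added, with their values seen, so that every member has its values; the search patterns were set after the tables were seen. The letters and positions of the Alu-derived string are not reported here. Steps were tested on simulated sequences. Alternatives were other thresholds, filters, pseudocount, members and scaling. Scripts ran in Python 3.11.15 with matplotlib 3.10.9, numba 0.67.0, numpy 2.4.6, scipy 1.17.1 and pandas 2.3.3.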

Additional observations from a re-analysis of the deposited data

Results flagged for a closer look

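ZNF260 was marked because its log2 fold had opposite signs in the 2 lines, at 1.37 in HepG2 and -1.56 in K562. Each line had 1 sample per group, and the difference between the lines was not tested.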

How the results depend on the processing

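At 3-fold, 4 ZNF genes were higher and 1 lower in HepG2 (median log2 fold 1.66), and 1 was higher and 3 lower in K562 (25% higher, median -1.86). At 4-fold, 2 were higher and 0 lower in HepG2 (100% higher, median 2.46), and 1 was higher and 2 lower in K562 (33.3%, median -2.06). Among genes not under the table's lower quartile of the larger average, 8 were higher in HepG2 (median 1.07), and 7 were higher and 5 lower in K562. Among those not under its median, 3 were higher and 2 lower in HepG2 (median 1.09), and 2 were higher and 3 lower in K562 (median -1.01). A pseudocount of 0.1 gave medians of 1.20 and 1.07. Protein-coding members alone gave a K562 median of 0.0011, and members with a symbol gave a HepG2 median of 1.12. Multiplying the knockdown averages by 1.5 left 1 lower in HepG2 (94.1% higher, median 1.82), against 76.3% higher of all listed genes still past 2-fold. In K562 it left 4 lower (76.5% higher, median 1.64), against 71.3%. Dividing by 1.5 left 4 higher in HepG2 (44.4%, median -1.57), against 28.2%, and 1 in K562 (9.09%, median -1.87), against 12.3%. Without members sharing over 10% of read-length strings, the medians were 1.12 in HepG2 and -0.0032 in K562, where 7 were higher. Because the tables hold nothing under 2-fold, a median near an even split jumps between signs. No paired analysis was possible because each group has 1 sample, and leaving out a technical replicate could not be run on averages.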
